A study of Mus musculus with 2 samples.

Results

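The Marchf genes encode membrane-associated RING-CH ubiquitin ligases, and 8 of them were followed here: Marchf1, Marchf2, Marchf3, Marchf5, Marchf6, Marchf7, Marchf8 and Marchf9. Every probe set that the array's annotation gives to 1 of these symbols was taken, which took 24 of the 45037 probe sets in the table for these 8 of 18193 genes. No probe set with several gene symbols named a Marchf gene. The genes were proposed for description with earlier results of these arrays in view, so their differences are given as a description and nothing is inferred from the choice.

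The RNA was that of spleen cells sorted from C57BL/6 animals bearing hepatocellular carcinoma, a liver cancer. The CD45-negative sample held cells carrying Ter119, which marks the surface of red cells and red cell precursors, and lacking CD45, the common surface protein of white cells. The CD45-positive sample held CD45-bearing cells of the same tumour-bearing animals and served as control, and whether Ter119 was used in that gate is not stated. Each group had 1 Affymetrix array, and the number of mice, any pooling and the animals' age are not given in the sources used here.

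A ubiquitin ligase attaches the small protein ubiquitin to a target, which can send that target to the proteasome or, for a surface protein, into endosomes and lysosomes. Most Marchf proteins sit in a membrane by way of hydrophobic spans next to their RING-CH domain, and they differ in the membrane they occupy and in the proteins they act on. Marchf7, also called axotrophin, is the exception among the 8, since it is known as a ligase without a predicted membrane span. In white cells the family is best known for Marchf1, which keeps MHC class II and CD86 off the surface of B cells and dendritic cells. In iron-taking cells it is known for Marchf8, which acts on the transferrin receptor.

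Over all probe sets the CD45-negative array had a median intensity of 85.1, against 87.8 for the CD45-positive one. A probe set counted as measured in an array above an intensity of 101.1, the level under which 95% of values fell for 80 olfactory and vomeronasal receptor probe sets, genes assumed to be off in spleen. Taken over the CD45-negative array by itself, this 95th percentile was 127. The sort was checked on defining markers. Ptprc, which encodes CD45, stood at 422.7 in the CD45-negative array against 32147 in the CD45-positive array at the brighter of its 2 measured probe sets. The log2 difference, CD45-negative minus CD45-positive, was -6.25 there and -1.80 at the other, which is short of 4-fold. All 7 erythroid markers on the array were at least 4-fold higher in the CD45-negative array, with summed intensities of 314360 against 6402. All 6 platelet markers were also at least 4-fold higher (34822 against 1642). These calls use the brightest probe set of each gene. The measured probe sets of Ank1, an erythroid marker, had differences between -0.11 and 6.98, and those of the platelet marker Gp1bb between 1.52 and 4.55. At least 4-fold lower were all 5 B cell markers (1862 against 99415), all 6 T cell markers (515.5 against 32403) and 6 of 8 myeloid and dendritic cell markers (4398 against 134250). Of the 6 stromal and endothelial and the 6 liver markers, 2 each were measured and none passed 4-fold. No marker was at 0 in either array, and 4 of the 6 T cell markers were too dim to count as measured among CD45-negative cells. Since neither group had a replicate array, replicate error is unknown, no test was possible and no p-value is given.

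Promoter windows are shown first for Marchf8, Marchf5 and Marchf1, the genes past 4-fold that have a window among those used. Of these, Marchf8 and Marchf5 were higher and Marchf1 lower in the CD45-negative array. The windows run 250 bases before to 50 after a gene's start, from the RefSeq table of GRCm38.p6. Marchf windows on an excluded chromosome were left out. After this, 6 of the 8 genes had a window under their symbols, in 9 windows, and Marchf2 and Marchf3 had none. Capitals mark matches, on either strand, to 4 short patterns bound by blood cell or general factors. They are the GATA word (GATA after A or T and before A or G), the Kruppel-like pattern CCNCNCCC, the E-box CACGTG and the ETS word CCGGAAG. The Marchf8 window lies on the plus strand at chr6:116337772-116338071, the Marchf5 window on the plus strand at chr19:37207290-37207589, and the 3 Marchf1 windows on the plus strand at chr8:65617790-65618089, chr8:65618275-65618574 and chr8:66386051-66386350.
Marchf8: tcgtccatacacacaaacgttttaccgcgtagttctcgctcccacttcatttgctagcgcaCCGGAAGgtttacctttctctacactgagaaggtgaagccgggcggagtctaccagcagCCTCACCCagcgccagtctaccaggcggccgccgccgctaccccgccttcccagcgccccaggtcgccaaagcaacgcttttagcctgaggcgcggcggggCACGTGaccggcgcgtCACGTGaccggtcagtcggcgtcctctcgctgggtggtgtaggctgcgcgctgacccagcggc
Marchf5: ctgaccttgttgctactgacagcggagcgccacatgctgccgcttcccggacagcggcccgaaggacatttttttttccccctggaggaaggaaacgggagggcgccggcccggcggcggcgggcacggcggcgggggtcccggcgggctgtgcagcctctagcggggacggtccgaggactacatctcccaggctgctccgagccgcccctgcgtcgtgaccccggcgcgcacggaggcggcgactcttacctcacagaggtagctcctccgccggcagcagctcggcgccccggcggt
Marchf1, start 1: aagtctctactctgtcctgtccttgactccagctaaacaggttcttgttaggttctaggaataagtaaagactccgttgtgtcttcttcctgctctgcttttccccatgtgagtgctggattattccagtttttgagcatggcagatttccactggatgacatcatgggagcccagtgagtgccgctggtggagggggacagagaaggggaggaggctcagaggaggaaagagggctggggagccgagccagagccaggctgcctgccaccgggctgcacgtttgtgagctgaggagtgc
Marchf1, start 2: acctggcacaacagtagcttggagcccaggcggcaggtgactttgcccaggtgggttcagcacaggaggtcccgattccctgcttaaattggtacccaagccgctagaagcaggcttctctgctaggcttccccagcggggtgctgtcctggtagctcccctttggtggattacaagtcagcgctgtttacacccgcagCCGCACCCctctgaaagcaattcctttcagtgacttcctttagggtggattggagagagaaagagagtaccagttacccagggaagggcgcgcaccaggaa
Marchf1, start 3: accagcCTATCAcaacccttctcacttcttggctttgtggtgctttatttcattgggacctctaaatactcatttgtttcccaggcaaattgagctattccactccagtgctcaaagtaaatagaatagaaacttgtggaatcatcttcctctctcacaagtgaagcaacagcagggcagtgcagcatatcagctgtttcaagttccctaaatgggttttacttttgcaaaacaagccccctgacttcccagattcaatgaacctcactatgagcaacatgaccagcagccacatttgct

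The Marchf8 window held a pair of CACGTG words, at bases 222 to 227 and 238 to 243 counted from 1 at the window's 5′ end, 1 CCGGAAG word at bases 62 to 68 and 1 CCNCNCCC match at bases 121 to 128. Of all 32851 windows in the table, 7.15% held CACGTG, 8.86% CCGGAAG, 49.5% CCNCNCCC and 29.8% a GATA word. The Marchf5 window shown, and a second one that starts 5 bases further on and is not shown, held none of the 4 patterns. Among the Marchf1 windows, the first held none, the second 1 CCNCNCCC match at bases 200 to 207, and the third 1 GATA word, read as CTATCA on the strand shown, at bases 7 to 12. None of these matches overlapped. The windows also differed in CpG content. Marchf8 had 33 CpG dinucleotides and each Marchf5 window 37, whereas the Marchf1 windows had 5, 9 and 0, against a median of 7 over all windows. Marchf6, Marchf7 and Marchf9, whose windows are not shown, had 53, 49 and 38 CpG and 6, 4 and 9 CCNCNCCC matches, some of them overlapping. A match describes the letters of the window and is no evidence of binding, and the arrays measured RNA only.

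Of the 24 Marchf probe sets, 19 were measured in at least 1 array, 13 of them in both, 4 only among CD45-negative cells and 2 only among CD45-positive cells. At least 4-fold higher in the CD45-negative array were 9 probe sets, beside 7.71% of the 21447 measured probe sets with 1 gene symbol. At least 4-fold lower were 3 probe sets, beside 14.5% of all measured. The other 7 measured probe sets were in neither class, and 5 were under the detection level in both arrays. A probe set measured in 1 array only had to differ to some degree, so no share of the measured ones is read as a result. Counted by gene, each represented by the probe set with the highest mean log2 intensity, Marchf2, Marchf3, Marchf5 and Marchf8 were at least 4-fold higher (4 of 7 measured genes, beside 8.31% of 11793 measured genes). Only Marchf1 was at least 4-fold lower (1 of 7, beside 16.8%). Marchf6 and Marchf7 were in neither class, and Marchf9 was not measured. The median difference over the 7 measured genes was 3.32 on the log2 scale, and over all measured genes it was -0.26. Each difference subtracts the CD45-positive log2 intensity from the CD45-negative one, after values under the detection level were raised to it.

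**Figure D1:**
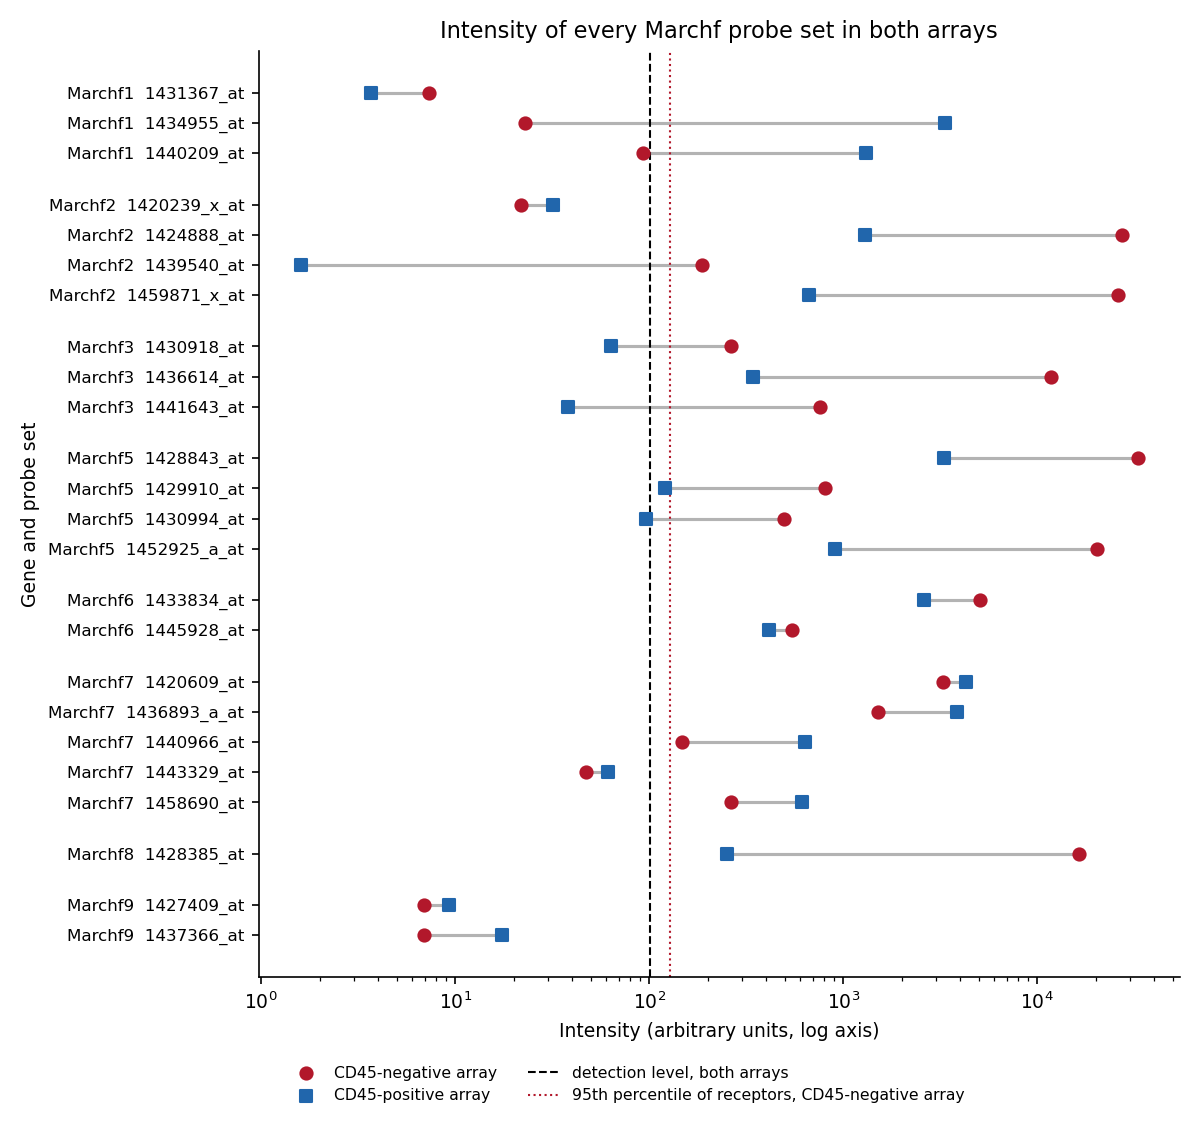
Intensity of each of the 24 Marchf probe sets (log axis, arbitrary units) in the CD45-negative array (circles) and the CD45-positive array (squares), grouped by gene, with the common detection level (dashed) and the CD45-negative array's own percentile (dotted). Circles lie right of squares for every measured probe set of Marchf2, Marchf3, Marchf5, Marchf6 and Marchf8 and left of them for those of Marchf1 and Marchf7.

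Marchf8 and Marchf1 are close relatives that act on overlapping surface proteins, and they differed in opposite directions. Marchf8, a ligase of endosomes and the plasma membrane whose known targets include the transferrin receptor, had an intensity of 16329 in the CD45-negative array against 251 in the CD45-positive array at its only probe set, 1428385_at. That is 65.1-fold higher, a log2 difference of 6.02, and it ranked 29th from the highest among the 11793 measured genes. The CD45-positive value lay above the detection level, so the difference is measured on both sides.

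Marchf1, the ligase that limits surface MHC class II and CD86 on antigen-presenting cells, was measured in the CD45-positive array only. Its probe set 1434955_at stood at 22.9 in the CD45-negative array, under the detection level, against 3354.6 in the CD45-positive array, at least 26.4-fold lower. Probe set 1440209_at gave 93.4, again under the level, against 1315.2, at least 10.3-fold lower. These bounds are taken against 127, the CD45-negative array's own percentile. Both probe sets point the same way, and the higher mean log2 intensity of 1440209_at made it stand for the gene. The third, 1431367_at, had 7.3 in the CD45-negative array against 3.7 in the CD45-positive one, and a probe set this dim on both sides says nothing of the difference. Averaging log2 intensities over all 3 probe sets, the silent one included, gave a difference of -1.33. This is a bound, since the averaged CD45-negative value was itself under the detection level, and it does not reach the 4-fold class.

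The B cell and the myeloid and dendritic cell markers that mark the cells in which Marchf1 is best known differed in the same direction as Marchf1. Their medians were -5.67 over the 5 B cell genes and -4.42 over the 8 myeloid and dendritic genes. The T cell markers did so too, with a median of -5.40 over 6 genes. The part of any of these cell types in the Marchf1 difference was not tested. In sorted bulk samples, fewer cells of a type and less RNA per cell cannot be told apart. The erythroid and platelet markers that differed in the same direction as Marchf8, Marchf2, Marchf3 and Marchf5 had median differences of 6.12 over 7 genes and 4.57 over 6 genes, and the part of either cell type in the higher Marchf values was not tested.

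Marchf2 and Marchf3 form another close pair, both ligases of the endosomal system, and both were higher in the CD45-negative array. Marchf2 had 27307 in the CD45-negative array against 1298.9 in the CD45-positive array at 1424888_at, 21.0-fold higher. At 1459871_x_at it had 25981 against 669.2, 38.8-fold higher, where the suffix marks probes that may cross-hybridize with other transcripts. These 2 probe sets lay far above the detection level in both arrays. Its dimmest measured probe set, 1439540_at, had 186.3 against 1.6 and was therefore at least 1.84-fold higher, a bound under the 4-fold class. The fourth, 1420239_x_at, was not measured, with 21.9 against 31.8.

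Marchf3 had 11753 in the CD45-negative array against 342.7 in the CD45-positive array at 1436614_at, 34.3-fold higher. It ranked 98th from the highest among measured genes by this probe set. Its other probe sets were measured in the CD45-negative array only. Probe set 1441643_at had 755.6 against 38, at least 7.47-fold higher, and 1430918_at had 263.1 against 63.6, at least 2.60-fold higher. All 3 were brighter in the CD45-negative array, and the dimmer 2 give bounds only. With log2 intensities averaged over its probe sets, the Marchf3 difference was 3.71 in place of 5.10. The averaged value is a lower bound, since the averaged CD45-positive intensity was itself under the detection level.

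Marchf5, known as MITOL, is the family member of the mitochondrial outer membrane, where it acts on proteins of mitochondrial fission and fusion. All 4 of its probe sets were at least 4-fold higher in the CD45-negative array. Probe set 1428843_at had 33019 in the CD45-negative array against 3295.9 in the CD45-positive array, 10.0-fold higher, and 1452925_a_at had 20315 against 903.8, 22.5-fold higher. The dimmer 1429910_at had 807.7 against 119.9, 6.74-fold higher. Probe set 1430994_at had 492.2 against 95.7, at least 4.87-fold higher, and it left the 4-fold class with the 99th percentile as detection level, at a difference of 1.62. Of the members with more than 1 measured probe set, Marchf5 and Marchf1 were those whose measured probe sets all passed 4-fold in 1 direction.

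Marchf6, the ligase of the endoplasmic reticulum also known as TEB4, was brighter in the CD45-negative array by less than the 4-fold class. It had 5067.7 in the CD45-negative array against 2617.3 in the CD45-positive array at 1433834_at, 1.94-fold higher, and 541.7 against 414.8 at 1445928_at, 1.31-fold higher. The differences, 0.95 and 0.39, are to be read beside 0.83, the pooled SD of the difference between probe sets of the same gene over 5474 genes. That SD is not replicate error, which 1 array per group does not give.

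Marchf7 was dimmer in the CD45-negative array at each of its 4 measured probe sets, by varying amounts. Probe set 1420609_at, the only one designed on a RefSeq mRNA, had 3285.8 in the CD45-negative array against 4284.7 in the CD45-positive array, 1.30-fold lower. Probe set 1436893_a_at had 1505.8 against 3878.2, 2.58-fold lower, and 1458690_at had 264.2 against 615.5, 2.33-fold lower. Probe set 1440966_at had 146.8 against 636.9, 4.34-fold lower, and was the only Marchf7 probe set past 4-fold. It was past 4-fold as deposited but not after quantile normalization, with a difference of -1.49, nor with the 99th percentile as detection level, with -1.99. The fifth, 1443329_at, was not measured, with 47.1 against 61.1.

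Marchf9, a ligase of the trans-Golgi network known for acting on MHC class I and ICAM-1, was under the detection level in both arrays at both of its probe sets. These had 6.9 and 6.9 in the CD45-negative array, against 9.3 and 17.5 in the CD45-positive array. No level and no fold can be given for it. Of the family members outside the 8, Marchf4 and Marchf11 were also under the level in both arrays. Marchf10, which like Marchf7 is known without a membrane span, had 183.7 in the CD45-negative array against 68.3 in the CD45-positive array at its leading probe set, at least 1.82-fold higher.

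**Figure D2:**
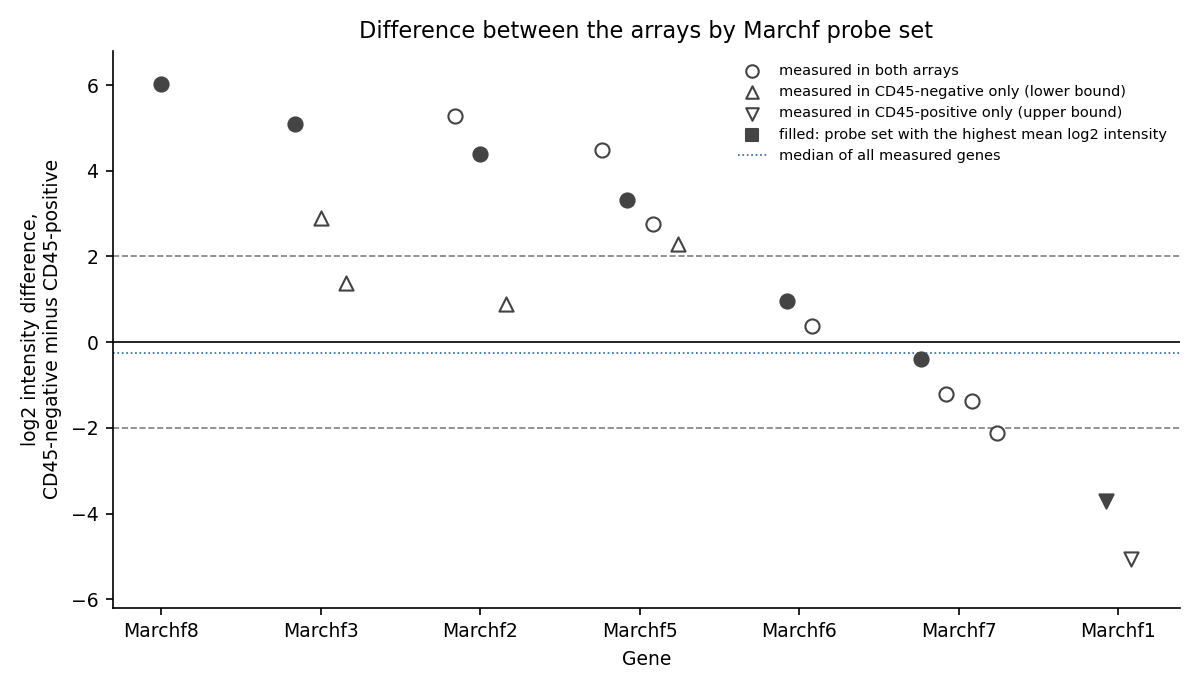
Log2 intensity difference, CD45-negative minus CD45-positive, of the 19 measured Marchf probe sets by gene, with 4-fold marked by dashed lines. Circles are measured in both arrays, triangles are bounds, and filled symbols stand for the gene. Marchf8 sits highest at 6.02, the measured probe sets of Marchf5 all lie above 2, and both Marchf1 bounds lie below -2.

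Probe sets of the same gene agreed in direction wherever they were measured, and disagreed in size. The SD of the difference over the measured probe sets of a gene was 0.40 for Marchf6, 0.71 for Marchf7, 0.95 for Marchf5, 0.96 for Marchf1, 1.87 for Marchf3 and 2.33 for Marchf2. In Marchf1, Marchf2, Marchf3 and Marchf5 this spread includes probe sets with bounds only. By the sequence the probes were designed on, 5 of 6 measured probe sets from cDNA clones were at least 4-fold higher and 0 lower. Of 12 measured from other entries, taken as expressed sequence tags, 4 were higher and 3 lower. Over all measured probe sets with 1 gene symbol the shares were 7.71% and 14.5%, and shares by kind of sequence were not computed. Since clone and gene go together here, the counts by sequence describe the probe sets and not the genes.

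**Figure D3:**
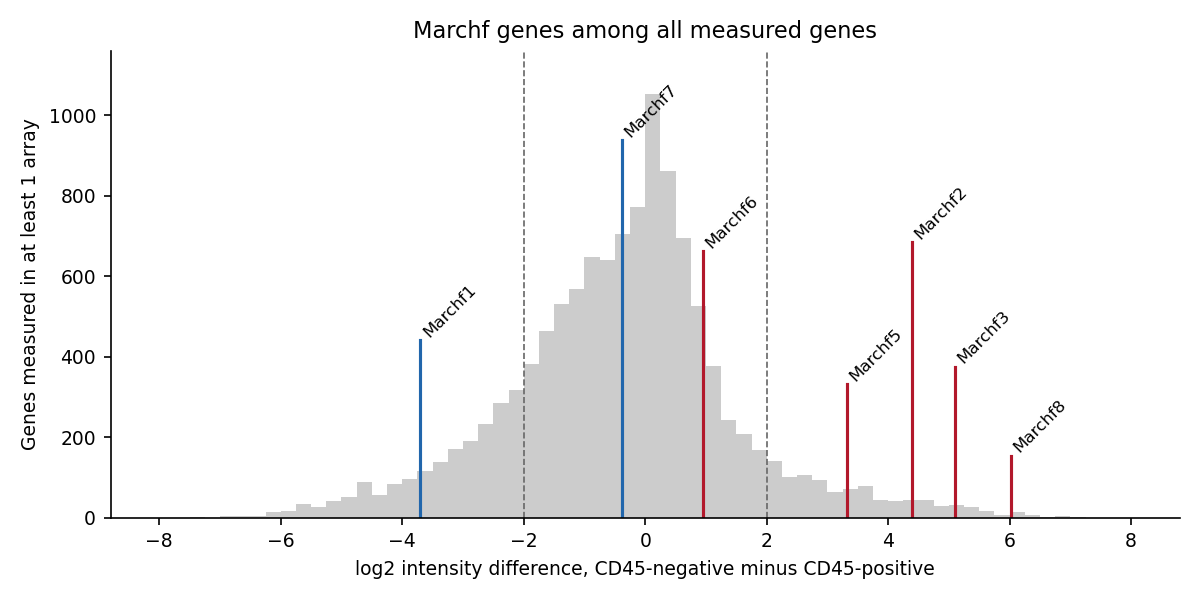
Distribution of the log2 intensity difference, CD45-negative minus CD45-positive, over the 11793 genes measured in at least 1 array (grey), with the 7 measured Marchf genes at their leading probe set. Line heights carry no value, the Marchf1 line is a bound, and dashed lines mark 4-fold. Marchf5, Marchf2, Marchf3 and Marchf8 lie right of the upper line and Marchf1 left of the lower one.

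The genes whose pair of intensities lay nearest to each strongly differing member were found by the Euclidean distance of the log2 intensities over the 2 arrays. For Marchf8 they were Aldh1a1 (17810 in the CD45-negative array against 263 in the CD45-positive array), Slc6a9, a glycine transporter, and Specc1. For Marchf2 they were Ccnb2, a mitotic cyclin (28113 against 1221), Nusap1 and the haem-regulated kinase gene Eif2ak1. For Marchf3 they were Pbk, Cdc6, a replication licensing factor, and Slc7a5, at a distance of 0.02 for Pbk (11642 against 341). For Marchf5 they were Ncoa4, the ferritin receptor of autophagy (33591 against 3686), Bsg and Odc1. For Marchf1 they were Bfsp2, Rnf125 and 4930426D05Rik, whose CD45-negative intensities of 94.8, 93.1 and 89.4 were under the detection level like that of Marchf1, so their order carries no information. Nearness in 2 values says only that the intensities were alike.

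Genes of proteins linked in human or mouse cells to Marchf1, Marchf8, Marchf9 or Marchf4, most of them as targets, differed in both directions. Of 20 such surface and endosomal genes, all measured, 3 passed 4-fold upward and 9 downward, for a median difference of -1.53. Over all measured genes the shares were 8.31% upward and 16.8% downward. The higher ones were Tfrc, the transferrin receptor (64930 in the CD45-negative array against 4433 in the CD45-positive array, 14.6-fold), Bsg, which encodes CD147 (38256 against 3236, 11.8-fold), and Slc3a2, the heavy chain of CD98 (17039 against 2989, 5.70-fold). Marchf8 is known to act on the transferrin receptor and on CD98. It shares surface targets with Marchf1, and the list does not assign its genes to 1 ligase. Of the 8 genes in neither class, Cd44 had 1829 against 5844, 3.19-fold lower, and Cd9 had 1602 against 1330, 1.20-fold higher. The largest lower differences were those of the MHC class II genes H2-Ab1 (581.6 against 30497, 52.4-fold), H2-DMa (260.8 against 8736, 33.5-fold) and H2-Eb1 (1188 against 36845, 31.0-fold). The adhesion gene Icam1 followed, at 15.5 against 1778, at least 14.0-fold lower. Cd86, the co-stimulator limited by Marchf1, had 81.5 against 862.7, at least 6.78-fold lower. Marchf8 was itself higher and Marchf1 lower, so any gene called higher goes in the direction of Marchf8 by construction. Any gene called lower, H2-Ab1 and Cd86 among them, likewise goes in the direction of Marchf1. Whether any ligase and target go together was not tested. These arrays measure RNA, whereas the ligases act on protein, so no ligase activity is measured here.

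Genes linked to Marchf5 at mitochondria and to Marchf6 at the endoplasmic reticulum were counted beside the whole array, where 8.31% of all measured genes passed 4-fold upward and 16.8% downward. Of 10 genes for targets or neighbours of Marchf5, 2 were at least 4-fold lower and 0 higher, and the median was -0.56. The lower ones were Pmaip1, the cell death gene NOXA (26.4 in the CD45-negative array against 1472.5 in the CD45-positive array, at least 11.6-fold), and Fundc1, a mitophagy receptor (186.4 against 1352.5, 7.26-fold). The fusion gene Mfn2 had 510 against 1027.8, 2.02-fold lower, and Mief2, which recruits the fission protein to mitochondria, had 24.9 against 290.9, at least 2.29-fold lower. The rest of the list went both ways at leading probe sets. Mfn1, Mavs, Fis1 and Dnm1l were 1.88-fold, 1.97-fold, 1.29-fold and 1.12-fold higher, and Mcl1 and Mief1 were 1.92-fold and 1.12-fold lower. Of 8 measured genes for targets and partners of Marchf6, only Nploc4, a cofactor of the extraction ATPase Vcp, passed 4-fold at its leading probe set. Nploc4 had 2631 against 649, 4.05-fold higher. Ube2g2 had a difference of -0.72 at its leading probe set and -2.31, past 4-fold lower, at the other. The probe sets of Ube2j2 disagreed in direction, with differences between -1.10 and 0.49. Sqle, the squalene epoxidase of cholesterol synthesis and a known Marchf6 target, had 982 against 272.5, 3.60-fold higher. Ufd1, the partner of Nploc4, was 2.43-fold higher, and Plin2, a lipid droplet coat gene, was 2.36-fold lower, with a list median of 1.02.

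Other ligases that span membranes were mixed. Of 24 measured genes of that kind, 6 were at least 4-fold lower, beside 16.8% of all measured genes, and 3 higher, beside 8.31%, and the median was -0.91. The higher ones were Trim59 (19409 in the CD45-negative array against 2390 in the CD45-positive array, 8.12-fold), Rnf19a (6743 against 969, 6.96-fold) and Rnf139, also known as TRC8 (11737 against 2665, 4.40-fold). The largest lower differences were those of Rnf13 (111.5 against 2289, at least 18.0-fold), Rnf130 (476.7 against 4344, 9.11-fold) and Rnf149 (226.3 against 1898, 8.39-fold). The probe sets of Rnf130 disagreed in direction, with differences between -3.19 and 0.69. So did those of Rnf144a, also called lower, between -2.73 and 0.41. Rnf122 (-2.19 to -0.68) and Rnf170 (-2.42 to -1.03), called lower too, each had a probe set short of 4-fold. With log2 intensities averaged over the probe sets of a gene, 2 genes of this list were at least 4-fold lower.

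**Figure D4:**
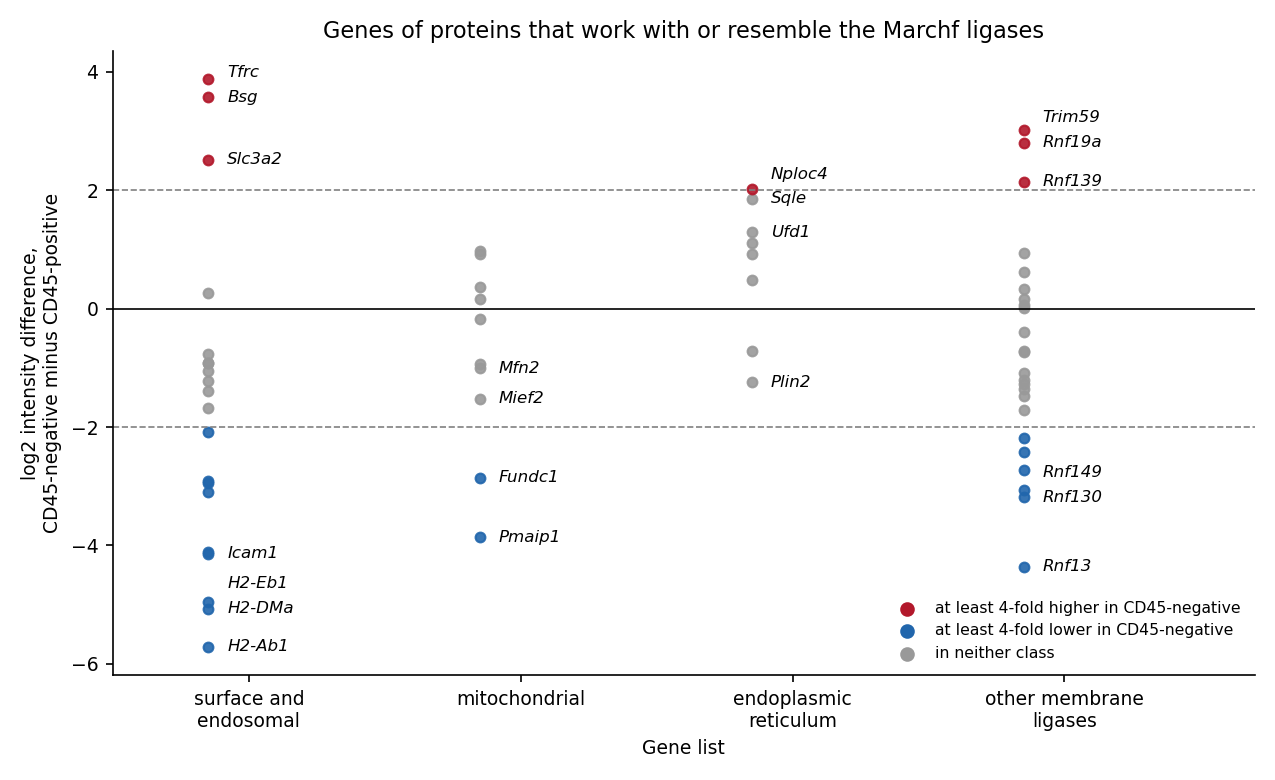
Log2 intensity difference, CD45-negative minus CD45-positive, of the measured genes of 4 lists, each dot a gene at its leading probe set. Dots of genes under the detection level in 1 array are bounds, and dashed lines mark 4-fold. In the surface and endosomal list, Tfrc, Bsg and Slc3a2 lie above the upper line and the MHC class II genes below the lower one. The mitochondrial list has no gene above the upper line.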

How the data were processed

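RNA of 2 sorted samples was measured on 1 array each. The deposited table holds linear intensities, 1 for each probe set on each array. Biotinylated cRNA was made from total RNA, per the labels' protocols. The submitters' processing notes name GCRMA and Partek 6.6 without roles. The means of the intensities with 2% left out at each end were 494 and 497, and which step scaled the arrays is not settled.

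GEO's platform annotation gave 34945 of 45037 probe sets 1 symbol. Of these, 34741 matched RefSeq GRCm38.p6 by Entrez identifier, with 0 symbols changed. Intensities were converted to log2, with neither pseudocount nor renormalization, and differences of 4-fold (2 on the log2 scale) were counted. Values at or under the detection level were raised to it. Bounds given as folds use 127 where the CD45-negative side is dim and 101.1 otherwise. Log2 differences, also those drawn as bounds in the figures, use 101.1 on both sides. The number of arrays limits the precision.

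Members, gene lists and motifs were chosen with earlier results of these data known, and the motifs and the windows shown after values were seen. All Marchf probe sets are named. Of each other list, the 4 largest differences and members 4-fold against the majority are named, with Ptprc, Tfrc, H2-Ab1, Cd86, Mfn2, Sqle and the 3 nearest genes of each member past 4-fold. Not every marker the rule took is named, and some genes are named outside the rule where they limit a named result. Alternatives covered centring, quantile normalization, the detection level, averaging of probe sets and suffixed probe sets. Scripts ran in Python 3.11.15 (pandas 2.3.3 with numpy 2.4.6, figures with matplotlib 3.10.9) and the counting was tested on simulated data.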

Additional observations from a re-analysis of the deposited data

How the results depend on the processing

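Each of the 7 alternatives gave 4 Marchf genes at least 4-fold higher. In those run on probe sets, 8 to 11 Marchf probe sets were higher and 2 or 3 lower. With log2 intensities averaged over the probe sets of a gene, 0 Marchf genes were at least 4-fold lower in place of 1, where the Marchf1 average takes in a probe set silent in both arrays and gives only a bound, -1.33, and 2 other membrane ligase genes were lower in place of 6, for which the cause was not tested. Without a detection level, the median over the Marchf genes was 2.14 with Marchf9 included, and over the whole array 3293 genes passed 4-fold downward and 2885 upward, with genes near background included, against 1979 and 980 as reported. After quantile normalization, 2 endoplasmic reticulum genes were at least 4-fold higher in place of 1, and the cause was not tested. Quantile normalization moved the median of all measured genes to 0.01, against -0.26 as deposited, and no Marchf probe set called 4-fold changed sign under any alternative. No paired analysis was possible because each group had 1 array and no test was run. Signal over background limits Marchf9 and the dim side of Marchf1, for which the arrays give no value or a bound.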
